A study of Mus with 15 samples.

Results

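The HoxA cluster is a row of homeobox transcription factor genes on mouse chromosome 6. The 9 members described here are Hoxa2, Hoxa3, Hoxa4, Hoxa5, Hoxa6, Hoxa7, Hoxa9, Hoxa10 and Hoxa11, out of 21887 protein-coding genes placed on the chromosomes. They were chosen by name as genes of the cluster and not by any measured value. Each was followed through the peaks of mono-ubiquitinated histone H2A (H2AK119ub, termed H2Aub) that overlapped its body plus 5 kb on each side, a stretch called its window. The cluster was also treated as a single interval of 83.394 kb, from the lower end of Hoxa2 to the upper end of Hoxa11 (chr6:52162417-52245810, mm10). Hoxa13 lies outside this interval and is given as a neighbour only.

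Hox genes set the identity of body segments along the head to tail axis of the embryo, and their order on the chromosome follows the order of their expression along that axis. Outside their domain of use they are held silent by the Polycomb complexes, of which Polycomb repressive complex 1 attaches the single ubiquitin to H2A and Polycomb repressive complex 2 methylates histone H3. Hox genes are classical Polycomb targets, and the forebrain, to which the thalamus belongs, lies in front of the region where they are used.

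The peaks came from ChIPmentation of microdissected thalami of mice aged 2 to 4 months, with 3 to 4 thalami pooled per sample according to the labels and a lower minimum in the methods. The wild-type controls (WT) are labelled Maged1 Loxp, that is floxed mice with Maged1 intact, and the conditional knockouts (labelled Maged1cKO, cKO below) lost Maged1, which encodes a MAGE family protein, through Cre driven by the Vglut2 promoter, so only cells that use or have used that promoter are deleted while every cell of the thalamus entered the library. All mice had 3 days of saline injections and then 5 days of cocaine (20 mg/kg, intraperitoneal) or saline, which gave 3 libraries for each WT group, 2 for cKO cocaine and 3 for cKO saline. A region of a pooled tissue library may be marked in some of its cells only, and the share of marked cells cannot be told apart from the level of the mark per cell.

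The study gives a minimum number of reads for all samples, but the number behind each peak list is not given in the sources used here. On the assembled nuclear chromosomes, the 11 lists held between 7271 and 80713 peaks. The cKO replicates numbered 1 stood apart, with 54653 peaks in cKO cocaine replicate 1 and 80713 in cKO saline replicate 1, against 7271 to 26055 in the other 9 lists. Their highest fold enrichments over input were also the highest of all lists, at 31.2 and 52.6 against 5.98 to 12.2. The coverage of the interval, the order of the members, the comparisons with cKO and the contrast with the other Hox clusters are therefore also given without these libraries. Marker genes say little about cell content here, since the mark does not report expression. Of 7 genes of thalamic neurons, 3 had a peak in all 11 libraries, as did 4 of 5 genes of cortical neurons, 3 of 4 of striatal neurons, 1 of 4 of oligodendrocytes and none of 3 each of astrocytes and microglia.

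H2Aub covered most of the HoxA cluster in every library. Peaks lay over 99.4, 92.0 and 86.8% of the interval in WT cocaine replicates 1 to 3. They lay over 89.9, 76.9 and 93.5% in WT saline replicates 1 to 3. The cKO cocaine libraries had 69.3 and 92.6%, and the cKO saline libraries 58.5, 89.2 and 66.9%. The 4 lowest values belonged to both cKO replicates 1, cKO saline replicate 3 and WT saline replicate 2, and all other libraries were above 86%. The mean over the 11 libraries was 83.2 ± 13.2% (SD, n = 11), and 87.5 ± 9.79% (SD, n = 9) without the cKO replicates 1. Low coverage was found both in the longest lists, which were those of the cKO replicates 1, and in the shortest lists, which were those of cKO saline replicate 3 and WT saline replicate 2 with 7271 and 8955 peaks.

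**Figure D1:**
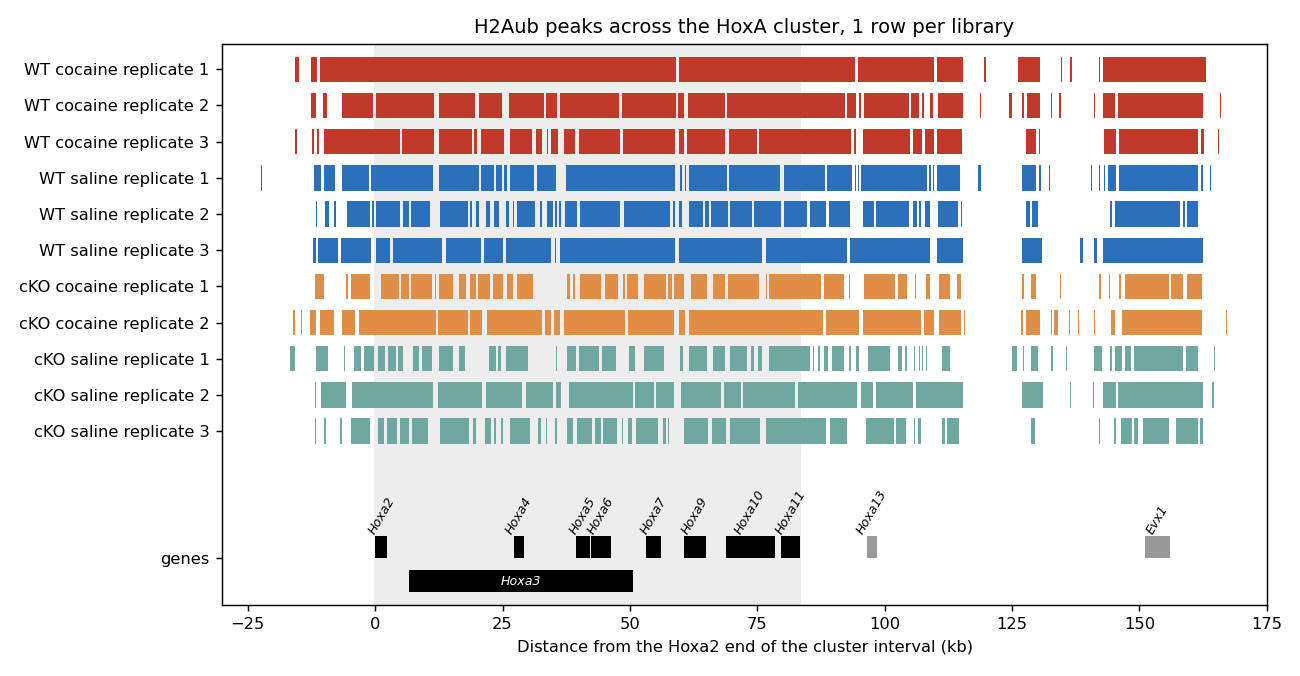
Each row is 1 library and each bar is 1 H2Aub peak, plotted against the distance in kb from the Hoxa2 end of the interval, which is shaded; black boxes are member genes and grey boxes Hoxa13 and Evx1. WT cocaine replicate 1 shows 2 peaks over the interval and cKO saline replicates 1 and 3 show 27 each, while the marked stretch begins and ends at similar places in all 11 rows.

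The cluster was either spanned by a few wide peaks or broken into many. The WT libraries had 2, 10 and 16 peaks over the interval after cocaine and 13, 26 and 9 after saline. The cKO libraries had 25 and 10 after cocaine, and 27, 12 and 27 after saline. The widest of them measured 69.9, 23.2 and 18.1 kb in WT cocaine and 21.5, 9.13 and 22.6 kb in WT saline. In cKO cocaine it measured 10.1 and 26.2 kb, and in cKO saline 7.94, 15.9 and 11.7 kb. The 69.9 kb peak of WT cocaine replicate 1 was the widest peak anywhere in its list and ran from -10.899 kb, below Hoxa2, to between Hoxa7 and Hoxa9, where 538 bp separated it from the next peak. In the other libraries the widest HoxA peak ranked between 3 and 25 by width in its list. Peaks were broken by short gaps: the longest uncovered stretch was 538 to 2816 bp in 9 libraries, and 6804 and 5487 bp in the cKO replicates 1.

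The borders of the marked stretch lay beyond the members on both sides and moved little. When peaks no more than 5 kb apart were joined, the stretch began 11.622 to 16.701 kb below Hoxa2 and ended 29.479 to 36.41 kb above Hoxa11, past Hoxa13. Its length was 126.385 to 135.51 kb over the 11 libraries. In both cKO replicates 1 the longest gap exceeded 5 kb, so that the stretch fell into 2 pieces there, and first and last ends were used. Among WT libraries the mean length was 132.6 ± 2.55 kb after cocaine and 128.4 ± 2.17 kb after saline (SD, n = 3 each). Among cKO libraries it was 129.3 ± 3.57 kb after cocaine (SD, n = 2) and 127.7 ± 1.65 kb after saline (SD, n = 3). The lower border lay 12.572 to 15.706 kb below Hoxa2 in WT cocaine and 11.622 to 12.19 kb in WT saline, without overlap. In cKO it lay at 11.76 to 16.04 kb after cocaine and 11.83 to 16.701 kb after saline. The upper border overlapped between the WT groups, and neither border was tested. Below the border the chromosome was almost bare, with 1 of 11 libraries holding a peak between 20 and 30 kb below Hoxa2 and none between 30 and 40 kb. Above the border the next peak followed after 5.441 to 14.107 kb, and coverage rose again over Evx1, a homeobox gene at the Hoxa13 side, whose window was covered to a mean of 94.7% (78.3 to 100%, n = 11). The Hoxa13 window had a mean of 81.1% (57.6 to 95.3%).

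Within the interval the mark was lowest between 30 and 40 kb, the stretch between Hoxa4 and Hoxa5 inside the long Hoxa3 body, where the mean over 11 libraries was 63.7% (19.7 to 100%). Of the stretches of 10 kb that lay wholly within it, the highest mean was 91.7%, between 70 and 80 kb over Hoxa10 and the lower end of Hoxa11. Every base of the interval lay under a peak in at least 1 library, and 34.9% of it (29097 bp) in all 11. These shared bases included 18 stretches of at least 500 bp, and each member body held part of at least 1. The longest were 2.386 kb in Hoxa9, 2.318 kb over the facing ends of Hoxa5 and Hoxa6, 2.267 kb over the upper end of Hoxa6, and 2.219 kb in Hoxa11. Only 2 stretches of 200 bp or more were covered in 2 libraries or fewer. They were 325 bp inside Hoxa3 (chr6:52174452-52174776) and 590 bp between Hoxa7 and Hoxa9 (chr6:52221388-52221977).

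Gene bodies were covered more than the sequence between them. Over the 8 members other than Hoxa3, whose annotated body spans 3 of them, the bodies exceeded the rest of the interval by 1.04 to 31.6 percentage points, and the difference was positive in 11 of 11 libraries. It was widest in cKO saline replicates 1 and 3, at 31.6 and 27.2 points, where bodies kept 78.1 and 83.8% coverage and the rest 46.5 and 56.6%. In WT cocaine replicate 1, where nearly all of the interval was covered, it was 1.04 points.

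All 9 members had a peak in all 11 libraries, which 6.76% of protein-coding genes had. By the mean share of the window under peaks, the members ranked between 8 and 60 of 21887 genes, for which the median was 0.0897%. Of the 60 genes at or above the least covered member, 26 were Hox genes. Outside the Hox clusters, the genes with the most covered windows were Lbx1 (96.7%), Uncx (96.3%), Barx1 (95.5%), Evx1 (94.7%) and Foxd3 (94.5%), which all encode developmental transcription factors. The windows of neighbouring members overlap and share peaks. That of Hoxa3 contains those of Hoxa4, Hoxa5 and Hoxa6, so the members are not independent measurements.

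**Figure D2:**
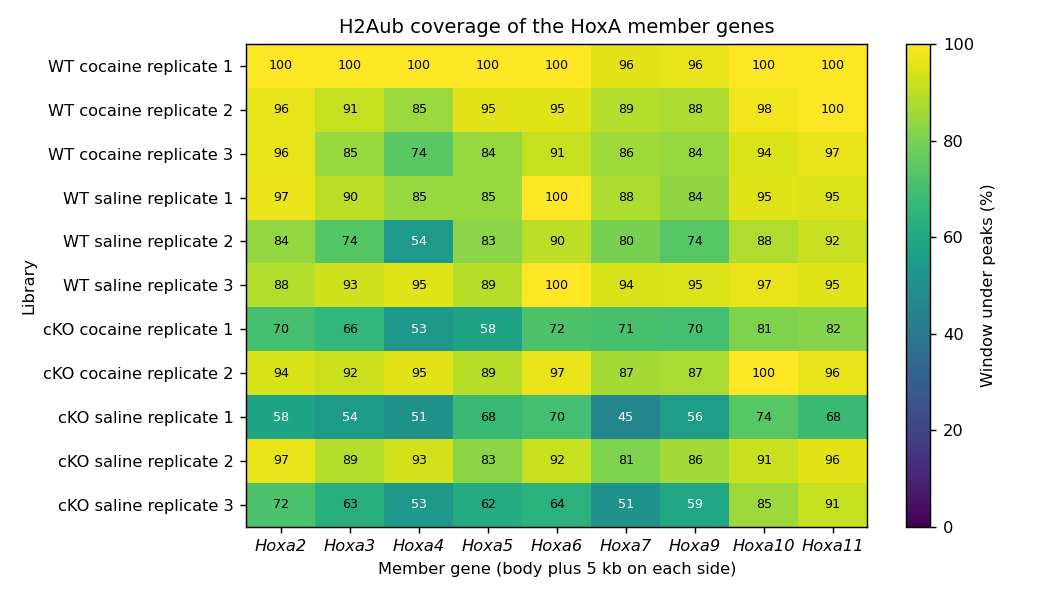
The colour and number of each cell give the percent of a member's window (gene body plus 5 kb on each side) under H2Aub peaks, with members in chromosomal order on the x axis and the 11 libraries on the y axis. WT cocaine replicate 1 is at or above 95.8% for all 9 members, and the 3 lowest cells are Hoxa7 in cKO saline replicates 1 and 3, at 45.4 and 51.2%, and Hoxa4 in cKO saline replicate 1, at 51.4%.

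At the anterior end, Hoxa2 (chr6:52162417-52164831), which patterns the hindbrain and the hyoid arch, was covered to 100, 96.2 and 96.2% in WT cocaine. It was covered to 97.1, 84.0 and 88.4% in WT saline, 70.4 and 94.1% in cKO cocaine, and 58.1, 96.6 and 71.8% in cKO saline. Of its low values, 2 came from the cKO replicates 1 and 1 from cKO saline replicate 3. The mean over 11 libraries was 86.6 ± 13.9% (SD). Hoxa3 (chr6:52169059-52213067), needed for the thymus and parathyroid, is annotated with a body of 44.009 kb and had the lowest value at 54.3% in cKO saline replicate 1, a median of 89.0% and a highest value of 100% in WT cocaine replicate 1.

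Hoxa4 (chr6:52189682-52191703), a gene of the neck region, was the least covered member, with a mean of 76.3 ± 19.7% (SD, n = 11). Its window was covered to 100, 85.1 and 74.4% in WT cocaine, 84.7, 54.1 and 95.0% in WT saline, 53.4 and 95.4% in cKO cocaine, and 51.4, 93.0 and 53.3% in cKO saline. The 11 values fell on both sides of a gap, 4 at 51.4 to 54.1% and 7 at 74.4% or more, and 3 of the 4 groups had a library on each side. The body of Hoxa4 itself was covered completely in 8 libraries and to 69.1, 73.4 and 74.7% in cKO cocaine replicate 1, WT saline replicate 2 and cKO saline replicate 2. Hoxa5 (chr6:52201754-52204587), which is needed for lung development, ranged from 57.5 to 100% with a median of 84.0%. Hoxa6 (chr6:52204858-52208672), which lies next to it, ranged from 64.0 to 100% with a median of 91.6% and was covered completely in 3 libraries, WT cocaine replicate 1 and WT saline replicates 1 and 3.

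Hoxa7 (chr6:52215623-52218573), a trunk gene, had the second lowest mean, 78.8 ± 16.6% (SD, n = 11), and was covered completely in no library. Its window was covered to 95.8, 89.1 and 85.6% in WT cocaine, 87.7, 79.6 and 94.1% in WT saline, 70.9 and 86.7% in cKO cocaine, and 45.4, 80.8 and 51.2% in cKO saline. The 2 low values in cKO saline, replicates 1 and 3, were the lowest of the 11, and the next was 70.9%. The body of Hoxa7 was covered to 79.7% or more in every library, with a mean of 96.6%. Hoxa9 (chr6:52223097-52227370), known for its part in blood stem cells and leukaemia, ranged from 55.8 to 96.2% with a median of 84.5%.

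Hoxa10 and Hoxa11 had the highest means. Hoxa10 (chr6:52231197-52240854), which acts in the uterus, had a mean of 91.2 ± 8.41% (SD, n = 11) and values of 100, 97.8 and 94.4% in WT cocaine, 95.0, 88.2 and 96.5% in WT saline, 80.5 and 100% in cKO cocaine, and 73.9, 91.5 and 85.4% in cKO saline. Its lowest values were in both cKO replicates 1, and the 4 groups overlapped. Hoxa11 (chr6:52242105-52245810), which acts in the forearm and the uterus, had the highest mean, 92.0 ± 9.36% (SD, n = 11). It was covered to 100, 100 and 96.7% in WT cocaine, 94.8, 91.6 and 95.0% in WT saline, 81.7 and 96.4% in cKO cocaine, and 68.2, 96.1 and 91.1% in cKO saline. Apart from the cKO replicates 1, all its values were above 91%. The order of the members by mean was Hoxa11, Hoxa10, Hoxa6, Hoxa2, Hoxa3, Hoxa5, Hoxa9, Hoxa7 and Hoxa4, and neighbours in this order differed by less than the SD of either. Without the cKO replicates 1 the means ran from 81.7% for Hoxa4 to 95.7% for Hoxa11 in the same order.

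For cocaine against saline in WT mice, the question was whether repeated cocaine goes with a different H2Aub coverage of the cluster. The coverage of the interval was 92.7 ± 6.29% in WT cocaine and 86.8 ± 8.72% in WT saline (SD, n = 3 each), a difference of 5.97 ± 6.21 percentage points (SE). The exact permutation test, two-sided, gave p = 0.5 (adjusted p = 0.545 over 12 tests of the cluster), and the groups overlapped. It was 1.05 points without WT saline replicate 2 and 2.66 points without WT cocaine replicate 1. With 3 against 3 libraries, or 2 against 3, this test cannot give a p below 0.1. The number of peaks differed by -6.67 ± 6.54 (SE, exact permutation p = 0.5), by -1.67 without WT saline replicate 2 and by -3 without WT cocaine replicate 1. The widest peak differed by 19.3 ± 17.1 kb (SE, exact permutation p = 0.4), of which 2.90 kb remained without WT cocaine replicate 1. With peaks less than 1 kb apart joined, these differences were -0.667 peaks and 11.2 kb. The mean coverage of the other 3 Hox clusters, each over its own interval, was also higher in WT cocaine, at 85.6 against 76.4% for HoxB, 86.0 against 73.7% for HoxC and 82.8 against 73.3% for HoxD. Whole lists had 10.4 to 17.2 Mb under peaks in WT cocaine and 5.55 to 11.1 Mb in WT saline, and the part of list size in the cluster's values was not tested. As a share of all bases under peaks, HoxA was lower in WT cocaine, at 480, 511 and 698 bp per 100000 bp, than in WT saline, at 676, 1155 and 926, with overlap.

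Of the members, 1 of 9 was covered more in every WT cocaine than in every WT saline library, where 15.5% of 8200 genes with a peak in these libraries were, and none was covered less, against 0.293%. That member was Hoxa11, at 96.7 to 100% against 91.6 to 95.0%, a difference of means of 5.09 ± 1.56 points (SE). The other 8 overlapped, and the mean was higher in WT cocaine for all of them but Hoxa6, which differed by -1.29 ± 4.17 points (SE). A higher mean in cocaine was also found for 6316 of the 8200 genes, with a median difference of 0.388 points, where the median of the members was 5.48 points. The scales are unlike: the median over genes was 0.326% in saline and 0.784% in cocaine, and that over members 87.1 and 93.1%. Leaving out WT cocaine replicate 3 made the count of separated members 3, where 31.7% of genes were then higher, and leaving out WT saline replicate 1 or 3 made it 2, where 30.1 and 18.8% of genes were. With gene bodies alone Hoxa11 was not separated, since its body was covered completely in WT saline replicate 3. No base of the interval separated the WT groups, being covered in every library of one and none of the other, whereas over the genome 1.80% of the bases under any WT peak were covered in cocaine alone in this way and 0.0649% in saline alone. Peaks of any WT saline library together covered 98.4% of the interval, and those of any WT cocaine library 99.4%. Less than 1.80% of it could thus be covered in cocaine alone, so that contrast with the genome decides nothing.

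**Figure D3:**
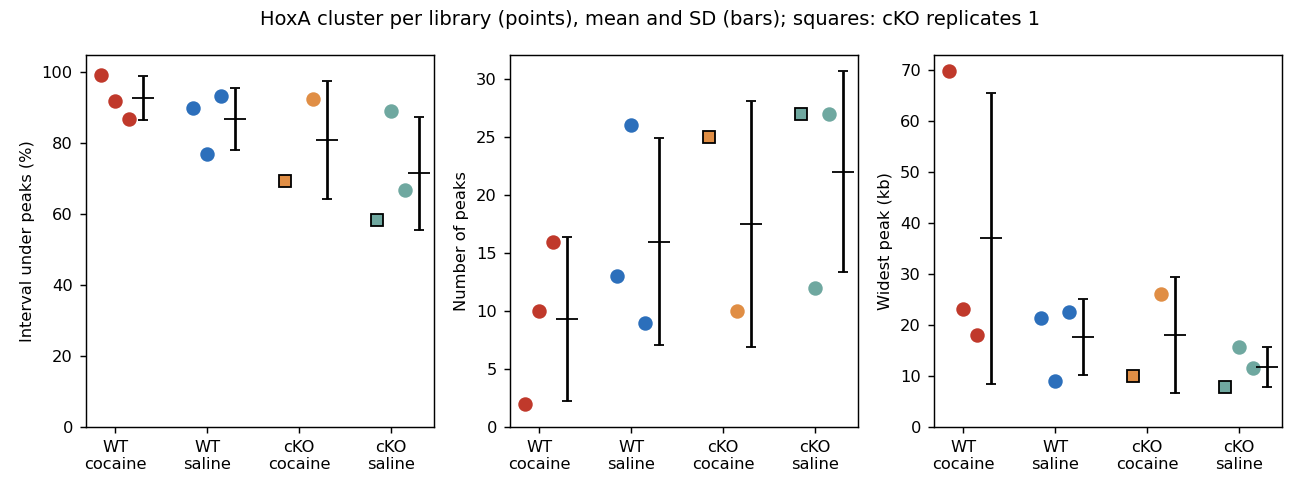
Points are libraries by group and black bars the mean and SD, for the percent of the interval under peaks, the number of peaks that overlap it and the width of the widest of them in kb; squares are the cKO replicates 1. The groups overlap in all 3 panels, and WT cocaine replicate 1, at 99.4%, 2 peaks and 69.9 kb, lies at the end of each.

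For cocaine against saline in cKO mice, coverage of the interval was 81.0 ± 16.5% (SD, n = 2) after cocaine and 71.6 ± 15.8% (SD, n = 3) after saline. The difference of 9.41 ± 14.8 points (SE) gave an exact permutation p = 0.5. With each list cut to equal numbers of peaks it was -8.20 points. As a share of all bases under peaks it was -336 bp per 100000 bp. The difference in coverage was -2.25 points without cKO cocaine replicate 2 and 21.1 points without cKO cocaine replicate 1. Without cKO saline replicate 1, 2 or 3 it was 2.90, 18.2 and 7.11 points, so its size rested on single libraries of both groups. The number of peaks differed by -4.5 ± 9.01 (SE) and the widest peak by 6.31 ± 8.38 kb (SE), both with an exact permutation p = 0.5. Without cKO cocaine replicate 2 they differed the other way, by 3 peaks and by -1760 bp, and without cKO cocaine replicate 1 by -12 peaks and 14373 bp. The number differed by -2 without cKO saline replicate 1 or 3, and by -9.5 without cKO saline replicate 2. With peaks less than 1 kb apart joined, the widest peak differed by 36.7 kb. HoxB, HoxC and HoxD also had higher means after cocaine, of 72.5, 69.9 and 71.2% against 65.4, 60.6 and 66.0%. No member was covered more, or less, in every cKO cocaine library than in every cKO saline library, where 3.9% of 14139 genes were covered more and 0.0778% less. This count rested on single libraries. Without cKO cocaine replicate 1, 8 members were higher in the remaining cKO cocaine library than in all 3 of cKO saline, all but Hoxa2, where 8.34% of genes were. Without cKO saline replicate 1 alone no member was separated, where 28.5% of 11505 genes were higher in cKO cocaine and 0.148% lower. Without both cKO replicates 1 the count was again 8, but 67.2% of 5739 genes were then higher too, and the difference in coverage of the interval was 14.6 points, a value with 1 library against 2 and no usable test. With all libraries the median difference of the members was 8.52 points, and that of the 14139 genes 0.0633. The scales are unlike, with medians of 70.7% in saline and 79.1% in cocaine over members, and 0.474 and 0.495% over genes. Without cKO cocaine replicate 2 alone 1 member was lower (0.349% of genes), and without cKO saline replicate 2 alone 5 were higher (5.24% of genes). The difference between the treatment effects of the genotypes was 3.44 points (exact permutation within genotype over 200 arrangements, p = 0.81). It was -8.23 points without cKO cocaine replicate 2, -3.07 without cKO saline replicate 1 and -13.5 with equal numbers of peaks per list. Without any other single library it stayed positive.

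For cKO against WT after saline, coverage of the interval was lower in cKO by 15.2 ± 10.4 points on average (SE), at 71.6 ± 15.8% against 86.8 ± 8.72% (SD, n = 3 each), with overlap and an exact permutation p = 0.2. The number of peaks differed by 6 ± 7.16 (SE, exact permutation p = 0.5) and the widest peak by -5.91 ± 4.89 kb (SE, exact permutation p = 0.3). The widest peak differed by -48.1 kb when peaks less than 1 kb apart were joined and by -10.2 kb without WT saline replicate 2. The number of peaks differed by 11 without WT saline replicate 2 or cKO saline replicate 2, and by 2.5 without WT saline replicate 3. The means of all 9 members were lower in cKO saline. The widest difference of means was that of Hoxa7, -28.0 ± 11.7 points (SE), and the narrowest that of Hoxa11, -8.68 ± 8.65 points (SE). The median over the members was -14.9 points, where that over 13344 genes with a peak in these libraries was 0.306. These are unlike scales, with medians of 70.7% in cKO and 87.1% in WT over the members, and 0.529 and 0% over the genes. The lower mean was not confined to HoxA: in cKO against WT saline it was 65.4 against 76.4% for HoxB, 60.6 against 73.7% for HoxC and 66.0 against 73.3% for HoxD. No member was lower in every cKO saline library, or higher, against 0.607 and 0.54% of genes. Coverage in cKO saline replicate 2 lay within or above the WT saline range for each member, and without that library all 9 members were lower in cKO than in WT saline, where 1.73% of genes were. Without WT saline replicate 2, 5 members were lower, where 2.25% of genes were. Without cKO saline replicate 1 the interval differed by -8.69 points (exact permutation p = 0.5), the number of peaks by 3.5 and the widest peak by -3.96 kb. No member was then separated, where 10.1% of 6948 genes were lower in cKO and 1.21% higher.

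For cKO against WT after cocaine, coverage of the interval differed by -11.8 ± 12.2 points (SE, exact permutation p = 0.5). The number of peaks differed by 8.17 ± 8.53 (SE, exact permutation p = 0.5) and the widest peak by -18.9 ± 18.4 kb (SE, exact permutation p = 0.6). Without cKO cocaine replicate 1 the coverage differed by -0.0999 points and the number of peaks by 0.667, and without cKO cocaine replicate 2 by -23.4 points and 15.7 peaks. The number of peaks differed by 4.5 without WT cocaine replicate 1, and by 1.67 with peaks less than 1 kb apart joined. The widest peak differed by -10.9 kb without cKO cocaine replicate 1 and by -2.50 kb without WT cocaine replicate 1. Of the members, 2 of 9 were lower in both cKO cocaine libraries than in all WT cocaine libraries, where 3.25% of 11926 genes were, and none was higher, against 6.6%. They were Hoxa2, at 70.4 and 94.1% against 96.2 to 100%, and Hoxa11, at 81.7 and 96.4% against 96.7 to 100%. The nearest cKO cocaine library was replicate 2 for both. The median difference over the 9 members was -11.4 points, where that over the 11926 genes was 0.244. Here too the members lay high, at medians of 79.1% in cKO and 93.1% in WT, and the genes low, at 0.721 and 0.196%. HoxB, HoxC and HoxD were lower on average too, at 72.5, 69.9 and 71.2% in cKO cocaine against 85.6, 86.0 and 82.8% in WT cocaine. Hoxa11 was no longer separated when only peaks with at least 200 bp in the window counted, and with gene bodies alone neither was, while Hoxa9 was, at 71.4 and 80.5% against 83.7 to 100%. The count was 9 without cKO cocaine replicate 2 (6.07% of genes), 5 without WT cocaine replicate 3 (8.59%), and 2 without cKO cocaine replicate 1 (23.3%).

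**Figure D4:**
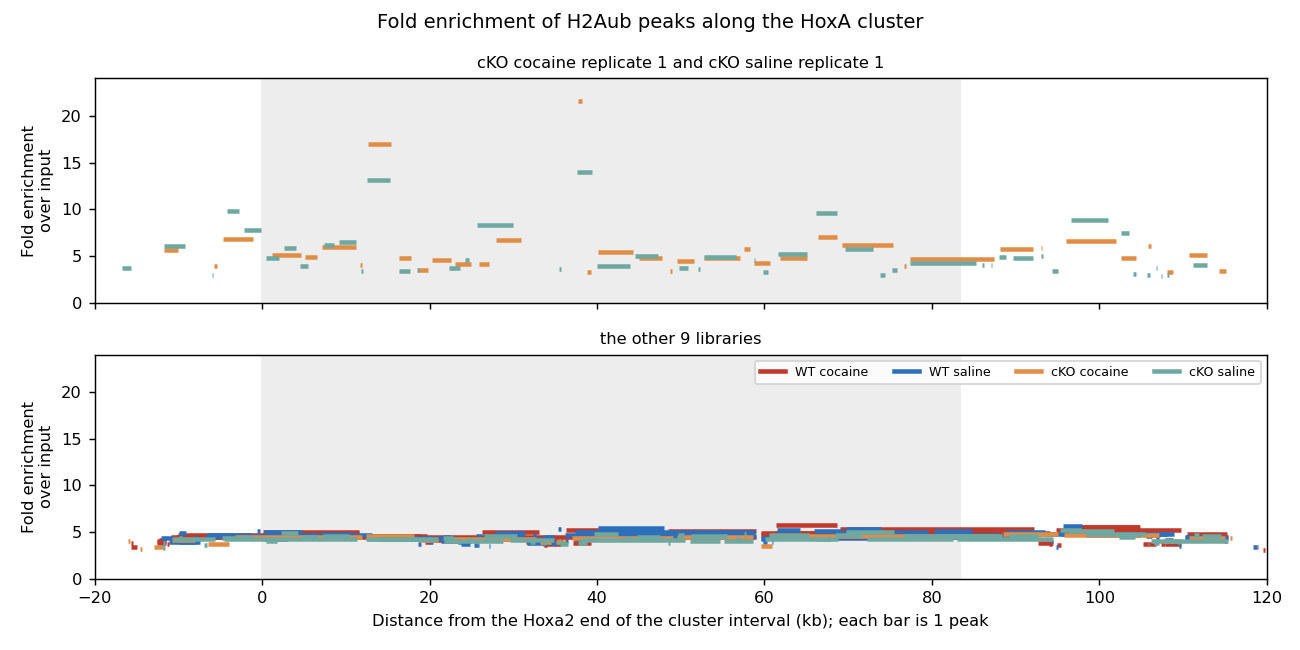
Each bar is 1 H2Aub peak, placed by its distance in kb from the Hoxa2 end (x) and its fold enrichment over input (y, linear); the upper panel holds cKO cocaine replicate 1 and cKO saline replicate 1 and the lower panel the other 9 libraries. The upper panel shows peaks of 13.1 to 21.5 at 2 places within the Hoxa3 body, and no peak over the interval in the lower panel exceeds 5.80.

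The mean height of the HoxA peaks was similar in most libraries. Averaged over covered length, fold enrichment over input was 4.23 to 5.06 in the 9 libraries other than the cKO replicates 1. Their highest single HoxA peak was 4.57 to 5.80 and their lowest 3.47 to 4.51. In cKO cocaine replicate 1 and cKO saline replicate 1 the averages were 5.89 and 6.06, with highest peaks of 21.5 and 14.0. These high peaks lay at the same 2 places of the Hoxa3 body in both libraries. The first, at chr6:52175011-52177769 in cKO cocaine replicate 1, had a fold enrichment of 17.0 there and 13.1 in cKO saline replicate 1, against 4.27 to 4.63 in the other 9 libraries. The other, at chr6:52200113-52200667 in cKO cocaine replicate 1, just below the Hoxa5 body, had 21.5 and 14.0, against 3.83 to 5.27. These sites were chosen for their values, so the contrast is a description. The 9 other libraries all had a peak at both. The caller gives 1 value for a whole peak, and the peaks at these sites were 0.555 to 2.759 kb wide in the cKO replicates 1 and 1.089 to 69.928 kb wide in the other 9.

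The mean HoxA fold enrichment held a lower place within its own list in the cKO replicates 1, although its value was higher there, and the highest HoxA peak did not hold a lower place. In the 9 other libraries the mean HoxA fold enrichment was above that of 89.5 to 99.6% of the peaks of the same list, and in the cKO replicates 1 above that of 78.0 and 82.4%. The highest HoxA peak was above 99.9 and 99.0% of the list in the cKO replicates 1, within the 97.4 to 99.95% of the other 9. When each list was cut to its 7271 strongest peaks, by p-value, the number in the shortest list, coverage of the interval fell to 3.97% in cKO cocaine replicate 1 and 13.4% in cKO saline replicate 1. In the other 9 libraries it stayed between 66.9 and 99.4%. Agreement between libraries in where the interval was covered did not follow the groups. The Jaccard index (bases under peaks of both libraries, over bases under peaks of at least 1) was 0.667 to 0.925 for 7 pairs within a group and 0.673 to 0.941 for 29 pairs of different groups, without the cKO replicates 1. Pairs with a cKO replicate 1 had 0.561 to 0.705 within groups and 0.589 to 0.720 between them.

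When only stretches covered in at least 2 libraries of a group were counted, a rule by bases that is not the same as the study's choice of peaks shared by replicates, the WT groups had 93.9% (cocaine) and 90.9% (saline) of the interval covered and the cKO groups 66.9% (cocaine) and 74.4% (saline). They were divided into 10, 16, 26 and 25 stretches in that order, the longest being 25.3, 21.7, 10.1 and 12.2 kb. The value of cKO cocaine rests on 2 libraries that must both be covered, and the other groups on any 2 of 3. Bases covered in all 3 WT cocaine libraries and neither cKO cocaine library made up 1936 bp in 5 stretches, 2.32% of the bases of the interval under any of these peaks, against 1.31% over the genome. In the opposite direction there were none, against 0.896% over the genome. Peaks of any WT cocaine library together covered 99.4% of the interval, so less than 0.896% of it was open to this and the contrast decides nothing. Of these stretches, 3 lay in the Hoxa3 body and 1 in that of Hoxa9, and the longest was 631 bp (chr6:52196934-52197564). Between cKO and WT saline, 513 bp were covered in all WT and no cKO libraries (0.620%, against 0.392% over the genome), and 36 bp the other way (0.0435%, against 0.108%). Between cKO cocaine and cKO saline, 512 bp were covered after cocaine alone (0.622%, against 1.36%) and 27 bp after saline alone (0.0328%, against 0.0411%).

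**Figure D5:**
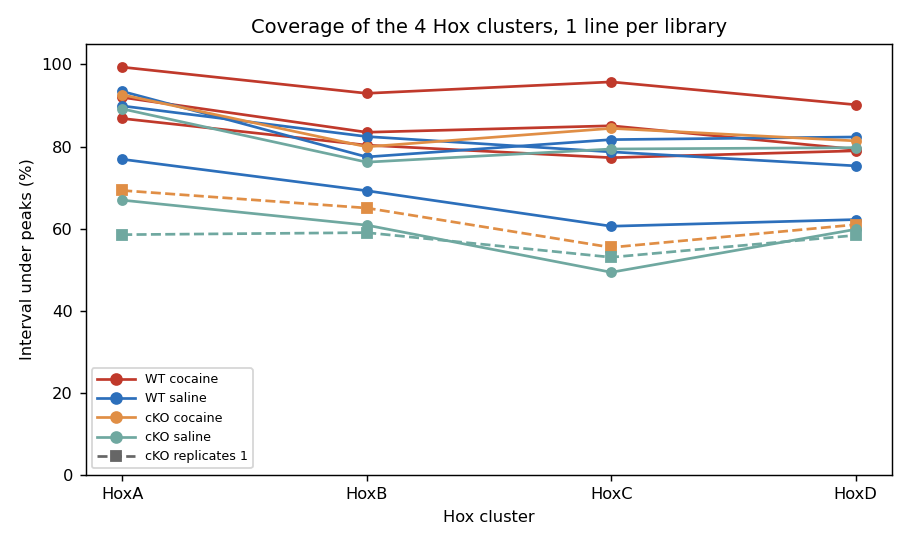
Each line is 1 library, coloured by group, and joins the percent of the HoxA, HoxB, HoxC and HoxD intervals under H2Aub peaks (y); dashed lines with squares are the cKO replicates 1. HoxA is the highest point of 10 of the 11 lines, the exception being cKO saline replicate 1, where HoxB is at 59.0% and HoxA at 58.5%.

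The HoxA interval was covered more than those of the other 3 Hox clusters, which were taken from Hoxb1 to Hoxb9, Hoxc4 to Hoxc13 and Hoxd1 to Hoxd13. Unlike those of HoxC and HoxD, the HoxA interval leaves out its gene numbered 13. Mean coverage was 79.8% between 90 and 100 kb, over Hoxa13, and 73.6% between 100 and 110 kb. The contrast was not run with the HoxA interval extended there. Over the 11 libraries HoxB had 75.2 ± 10.5%, HoxC 72.8 ± 15.4% and HoxD 73.5 ± 11.1% (SD), against 83.2 ± 13.2% for HoxA. HoxA exceeded HoxB by 8.01 ± 1.37 points (SE) in 10 of 11 libraries, with p = 0.00195 (adjusted p = 0.00195 over 3 tests) by the exact paired permutation test over libraries, two-sided. It exceeded HoxC by 10.4 ± 1.31 points (SE) and HoxD by 9.67 ± 1.23 points (SE), in 11 of 11 libraries each. Both gave p = 0.000977 (adjusted p = 0.00146) by the same exact paired permutation test, the smallest p it can give. The libraries are of 4 groups, which were not distinguished here. Without the cKO replicates 1 the differences were 9.36, 10.5 and 10.9 points, each positive in all 9 libraries with an exact permutation p = 0.00391. The 4 libraries with the lowest HoxA coverage were also the 4 lowest in each of the other clusters.

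Genes for the partners and repressors of Hox genes were covered far less. Of 9 genes of Hox cofactors of the Meis, Pbx and Pknox families, only Meis1 and Meis2 had a peak in all 11 libraries, with means of 6.20 and 7.57% of the window, and the other 7 were at 0.142 to 1.89%. Of 12 genes for Polycomb subunits, those of Bmi1 and Pcgf1, which belong to Polycomb repressive complex 1, had a peak in all 11 libraries (means of 17.5 and 9.02%). Pcgf3, Pcgf6, Eed and Ezh2 had no peak in any library, and the rest had means of 0.0305 to 5.10%.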

How the data were processed

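H2Aub was measured by ChIPmentation (chromatin immunoprecipitation with adapters inserted by Tn5 transposase) in 11 libraries, and 4 libraries of total input chromatin were not analysed here. Per the labels and the study's methods, Bowtie2 (version 2.3.4.1) was used by the authors to map reads to mm10, and MACS2 (version 2.1.1.20160309.3) to find broad peaks over input in each library separately. The deposited lists give for each peak its fold enrichment, a linear ratio over input, its −log10 p and −log10 q, and a score. The highest q in a list was 0.0976 to 0.0997. The lists used here hold no read counts, so depth per library is unknown, was not corrected for and gives no interval. It can change how many peaks were called and how finely a wide region was divided.

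The few peaks outside chromosomes 1 to 19, X and Y were left out, so that 80713 of 80720 peaks remained in cKO saline replicate 1, 54653 of 54656 in cKO cocaine replicate 1, and all peaks elsewhere. Genes came from a RefSeq table of GRCm38.p6, which shares its coordinates with mm10. All 9 member symbols matched. The table gives no strand, so no start sites were used, and no sequences are shown. Covered share, number of peaks, widest peak and borders were computed per library with Python 3.11.15, numpy 2.4.6 and pandas 2.3.3, on scripts tested on simulated data. The library was the unit of replication, and labels call libraries replicates of pooled mice. Exact two-sided permutation tests compared group means, and Hox clusters by exact paired permutation tests, with Benjamini-Hochberg adjustment within each family. For genes, non-overlap of groups was counted over protein-coding genes with a peak in any library of the 2 groups. All 9 members passed this filter in each comparison.

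The members and gene lists were chosen with earlier results of these data known. All members are named. The 2 with the highest and the 2 with the lowest mean, and any whose groups did not overlap, are given in every library. Other genes are neighbours of the cluster, listed cofactors and Polycomb genes, or the 5 most covered outside the Hox clusters. Alternatives were q at most 0.05 and 0.01, equal numbers of peaks, other flanks and intervals, share of all covered bases, joined peaks, minimum overlap, replicate block and leaving out libraries. One item is not reported here.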

Additional observations from a re-analysis of the deposited data

How the results depend on the processing

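The 12 comparisons of the cluster cannot pass 0.05 in this design, so only their direction and size are compared here. HoxA exceeded HoxB, HoxC and HoxD under every alternative run, by 7.21 to 8.86, 9.67 to 11.1 and 9.17 to 10.6 percentage points when 1 library was left out. Apart from leaving out 1 library, 7 values reversed their direction and 6 counts of separated members changed. The other 106 values kept their direction or, for counts of members, were unchanged. Among them, joining peaks less than 1 kb apart moved the WT difference in the number of peaks to -0.667 and that of cKO minus WT after cocaine to 1.67. It moved the difference in the widest peak to 11.2 kb in WT, 36.7 kb in cKO and -48.1 kb for cKO minus WT after saline. At q at most 0.01, the number of peaks in cKO cocaine minus cKO saline was 0.167, 1 member was separated between cKO and WT saline and 4 between cKO and WT cocaine. The share of all genes separated at this threshold was not counted, so these counts cannot be weighed. With equal numbers of peaks per list, coverage differed by -8.20 points between cKO cocaine and cKO saline, the difference of treatment effects was -13.5 points, and the number of peaks in cKO minus WT was -1 after saline and -2.67 after cocaine. In this setting the cKO replicates 1 keep little of the cluster. Without the cKO replicates 1, 8 members were separated between cKO cocaine and cKO saline, where 67.2% of 5739 genes were higher after cocaine too. As a share of all bases under peaks, HoxA differed between cocaine and saline by -356 bp per 100000 bp in WT and -336 in cKO. With gene bodies alone, 0 members were separated between WT cocaine and WT saline and 1 between cKO and WT cocaine, Hoxa9. With at least 200 bp of a peak in the window the latter count was also 1, but for Hoxa2. For bodies alone and for this minimum the share of all genes was not counted either. Where not said, the cause was not tested.

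With 1 library left out, coverage differed by 1.05 to 9.33 points in WT (cocaine minus saline), -2.25 to 21.1 in cKO, -24.0 to -8.69 for cKO minus WT after saline and -23.4 to -0.0999 after cocaine, and the difference of treatment effects by -8.23 to 15.1. In the same order of comparisons, the number of peaks differed by -10.2 to -1.67, -12 to 3, 2.5 to 11 and 0.667 to 15.7, the widest peak by 2.90 to 28.8 kb, -1760 to 14373 bp, -10.2 to -3.47 kb and -28.4 to -2.50 kb, and the count of separated members was 1 to 3, 0 to 8, 0 to 9 and 2 to 9. Over the same leave-outs, 16.7 to 31.7% of genes were higher after cocaine in WT and 4.0 to 33.1% in cKO. Between genotypes, 0.631 to 10.1% of genes were lower in cKO after saline and 4.43 to 23.3% after cocaine.

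Replicate numbers were not taken to pair the libraries. In WT, deviations of same-numbered libraries from their group means correlated at 0.37, 0.14 and -0.11. In cKO the 2 numbered pairs, too few for the check, correlated at 0.61 and 0.67. With the replicate number as a block, coverage differed by 5.97, 7.11, -15.2 and -14.7 points in the same order, and no result changed direction.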
